A study of Mus musculus with 18 samples.

Results

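Glycolysis and hypoxia response genes were followed as a set of 32 mouse genes, chosen by symbol from the 57010 genes of the count table. The set holds the glycolytic enzymes from hexokinase to lactate dehydrogenase, and the oxygen-sensing genes Egln1, Egln3, Hif1a and Epas1. It includes Pfkfb3 and Pfkfb4, bifunctional enzymes that set the level of the fructose bisphosphate that activates phosphofructokinase. It also holds 7 genes known as targets of hypoxia-inducible factor (HIF), the collagen prolyl hydroxylases among them, and the pyruvate dehydrogenase kinase Pdk1. All 32 were found, and 31 passed the filter on low counts. The exception was Adm, which encodes the vasodilator peptide adrenomedullin and had 0 to 15 counts per library.

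RNA was sequenced in bulk from brain cells of wild-type male mice, 3 libraries in each of 6 groups. The cells were depleted of Ly6G-bearing cells and then selected with CD11b beads, and the labels call them microglia and macrophages. Aged mice (18 to 20 months) with stroke, made by occlusion of the middle cerebral artery, received bexarotene or vehicle, as did aged mice without stroke and young mice (2 to 4 months). Bexarotene, which activates retinoid X receptors, was injected into the peritoneum at 5 mg/kg in 3% DMSO, starting 24 hours after the operation and going on daily over 2 days. Vehicle mice received 3% DMSO in saline, and all cells were taken on day 3. The labels name each sample a biological replicate and do not tell whether animals were pooled or whether mice without stroke were operated on.

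Glycolysis splits glucose into pyruvate in the cytosol and yields ATP without oxygen, and lactate dehydrogenase turns pyruvate into lactate so that the pathway can go on. When oxygen is short, the prolyl hydroxylases encoded by the Egln genes no longer mark HIF alpha subunits for destruction, and HIF raises transcription of glycolytic enzymes, of Pdk1 and of its own hydroxylase Egln3. In macrophages a shift toward glycolysis is known to go with inflammatory activation, in which HIF1A also takes part without low oxygen.

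Library totals ran from 16206144 to 29359943 counts with stroke and from 7582511 to 11852638 counts without stroke. The 32 genes took 0.730% to 0.927% of the counts of a library with stroke, against 0.395% to 0.543% without stroke. Levels are given below as CPM, counts scaled to each library's size (its sum over genes tested, times a TMM factor), and a floor of 3 counts corresponded to 0.102 to 0.396 CPM. A gene is named as called when its edgeR quasi-likelihood p, adjusted by Benjamini-Hochberg over the 15528 genes tested, was under 0.05. Microglial markers, 10 genes in all, were detected in every library. In every group except aged stroke bexarotene, the library numbered 1 held the most RNA of choroid plexus markers, with a summed level up to 2113 CPM, and calls that change without the libraries numbered 1 are named where they occur.

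Short promoter sequences of 5 members are shown because they carry the core of the HIF response element in different numbers and belong to genes that moved in different ways with stroke. Each runs 5′ to 3′ over the 250 bases before the annotated start, from RefSeq's GRCm38.p6 table, and capitals mark ACGTG or GCGTG read on either strand (CACGT and CACGC where the match is on the other strand). Ldha (chr7:46845554-46845803, plus strand), Pgk1 (chrX:106186850-106187099, plus strand) and Egln3 (chr12:54203875-54204124, minus strand) were higher with stroke. P4ha1 (chr10:59323046-59323295, plus strand) was lower, and Bnip3 (chr7:138909507-138909756, minus strand) was not called.
Ldha: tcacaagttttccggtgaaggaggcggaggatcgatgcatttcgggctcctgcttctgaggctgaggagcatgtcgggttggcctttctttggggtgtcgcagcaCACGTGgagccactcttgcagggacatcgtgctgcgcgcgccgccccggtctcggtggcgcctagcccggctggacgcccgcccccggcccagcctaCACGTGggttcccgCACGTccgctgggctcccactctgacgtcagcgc
Pgk1: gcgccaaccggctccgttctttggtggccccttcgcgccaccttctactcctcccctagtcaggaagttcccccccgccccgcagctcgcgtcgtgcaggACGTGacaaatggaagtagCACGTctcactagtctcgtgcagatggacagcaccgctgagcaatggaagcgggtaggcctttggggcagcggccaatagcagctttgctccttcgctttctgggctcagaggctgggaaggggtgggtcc
Egln3: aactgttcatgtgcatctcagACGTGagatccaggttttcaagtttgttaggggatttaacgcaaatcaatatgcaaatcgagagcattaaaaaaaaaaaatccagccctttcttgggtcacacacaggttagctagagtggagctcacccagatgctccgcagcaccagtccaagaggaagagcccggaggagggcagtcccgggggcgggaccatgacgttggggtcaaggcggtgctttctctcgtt
P4ha1: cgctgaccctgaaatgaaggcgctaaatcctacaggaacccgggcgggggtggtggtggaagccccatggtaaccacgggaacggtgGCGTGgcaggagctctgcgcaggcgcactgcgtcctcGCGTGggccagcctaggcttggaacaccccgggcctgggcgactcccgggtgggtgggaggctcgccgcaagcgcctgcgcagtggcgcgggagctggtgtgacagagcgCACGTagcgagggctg
Bnip3: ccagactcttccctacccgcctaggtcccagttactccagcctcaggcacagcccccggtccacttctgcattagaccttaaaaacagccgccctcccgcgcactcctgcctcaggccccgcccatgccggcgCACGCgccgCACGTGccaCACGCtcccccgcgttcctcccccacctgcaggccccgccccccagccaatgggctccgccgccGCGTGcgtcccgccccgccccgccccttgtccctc

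Promoters were listed for 29 of the 32 members, all but Ndrg1, Epas1 and Bnip3l, with 42 starts among them. ACGTG stood in 45.2% of these 42 promoters, against 21.1% of the 13135 promoters of genes tested and 16.6% of all 32851 promoters in the table. GCGTG stood in 54.8% of the members' promoters, against 42.8% and 28.2%. CACGTG, which is its own reverse complement and contains ACGTG, stood in 11.9%, against 8.12% and 6.02%. At least 1 promoter with ACGTG was present for 9 of 14 members that were higher with stroke in vehicle mice, 3 of 4 that were lower and 4 of 10 that were not called, and at least 1 with GCGTG for 6 of 14, 3 of 4 and 9 of 10. Over the 10259 genes tested that had a promoter, ACGTG was present for 24.8% of those higher, 23.6% of those lower and 25.2% of those not called, and GCGTG for 47.9%, 47.04% and 49.5%. The set was chosen to hold known HIF targets, so the members' shares are not independent of that choice. Some starts of the same gene lie close together, as in Aldoa, Eno1 and Pfkm, and count the same match more than once. Such matches describe letters in a window and say nothing of binding.

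Per kilobase of exon, the most abundant member in aged vehicle cells was Ldhb, the lactate dehydrogenase subunit typical of oxidative tissue, at 336 ± 10.5 CPM per kb (SD, n = 3). P4ha1, a catalytic subunit of collagen prolyl hydroxylase, followed at 158 ± 53.3 CPM per kb and the aldolase gene Aldoa at 147 ± 17.3 CPM per kb, which overlapped. Eno1, Pgam1, Ldha, Pkm and Gapdh lay close together, between 78.6 and 96.3 CPM per kb. The lowest were Epas1, P4ha2 and Adm, at 0.221, 0.147 and 0.136 CPM per kb. These values divide by all annotated exon bases of a gene, not by the length of the transcripts present, so the order depends on that choice. In aged stroke vehicle cells the order had another leader: Pkm, the pyruvate kinase gene, stood at 292 ± 45.7 CPM per kb, Ldha at 243 ± 38.5 and Ldhb at 183 ± 27.7 CPM per kb.

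Stroke was the comparison in which most members moved. In bexarotene mice 17 of the 31 tested members were called, 13 higher and 4 lower, which is 54.8% of them, against 48.0% of all genes tested. In vehicle mice 20 of 31 were called, 15 higher and 5 lower, which is 64.5%, against 48.3% of all genes tested. By direction, the shares of all genes tested were 26.8% higher and 21.2% lower in bexarotene mice, and 27.2% higher and 21.1% lower in vehicle mice. The median log2 fold change of the members was 0.25 in bexarotene mice and 0.40 in vehicle mice, against 0.00 and 0.02 over all genes tested. The levels of the stroke and no stroke libraries did not overlap for 17 of 31 members in bexarotene mice, where 56.3% of all genes tested did not overlap, and for 19 of 31 in vehicle mice, where 56.1% did not.

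**Figure D1:**
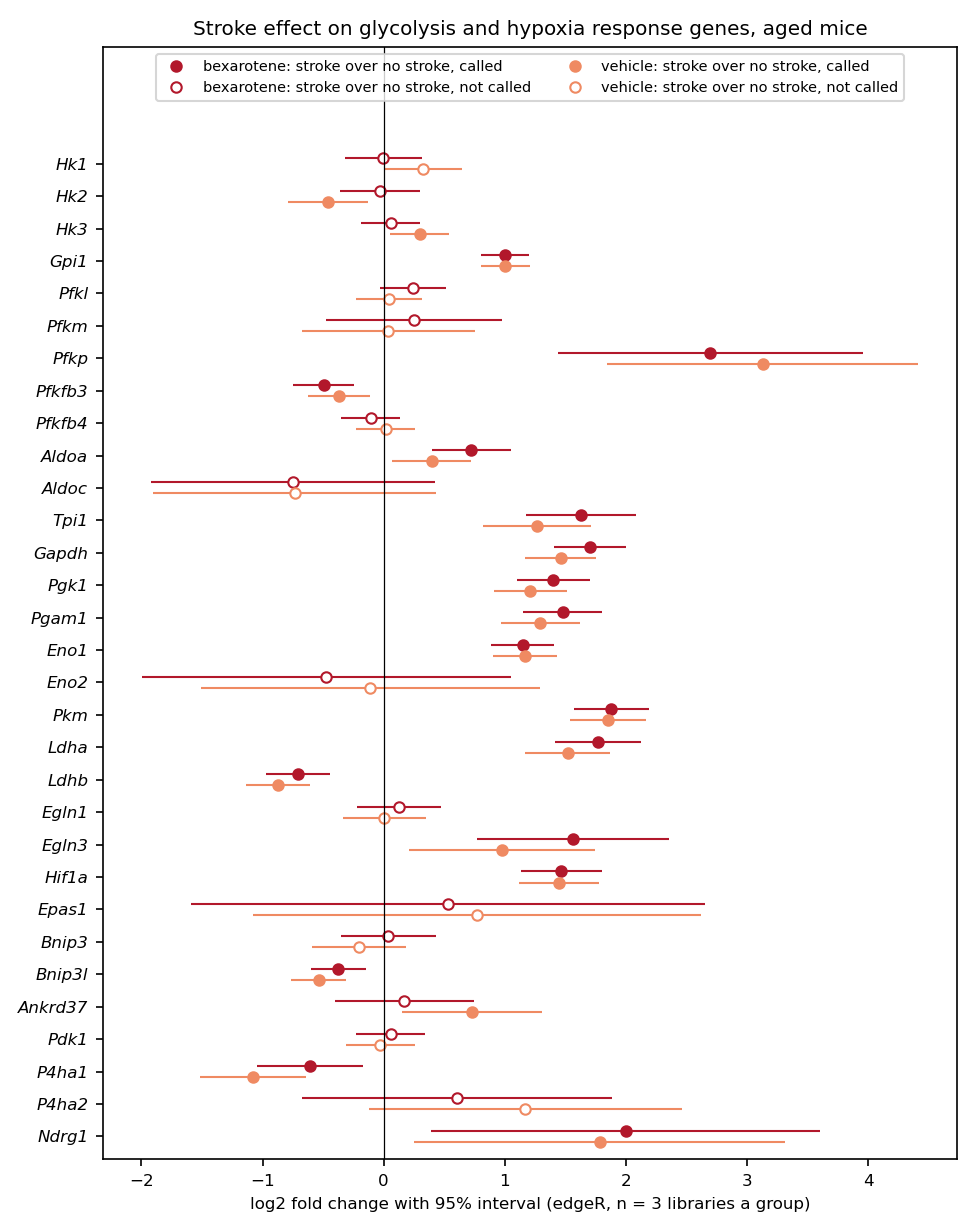
Log2 fold change of stroke over no stroke for the 31 tested members (rows, in pathway order), with 95% intervals, in bexarotene mice (dark red) and vehicle mice (orange); filled points were called. Members from Tpi1 to Eno1 and Pkm, Ldha and Hif1a lie between 1.15 and 1.88, Pfkp lies above them in both treatments, and Ldhb and P4ha1 lie below 0.

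The samples are bulk RNA, so fewer cells of a type and less RNA per cell cannot be told apart, here and in every comparison that follows. Markers of several cell types differed with stroke. The counts of markers called are to be read against the shares of all genes tested. These were 26.8% higher and 21.2% lower in bexarotene mice, and 27.2% higher and 21.1% lower in vehicle mice. All 10 markers of infiltrating monocytes and macrophages, among them Ly6c2 and Ccr2, were called higher with stroke in both treatments. Their summed level was 2728 to 5346 CPM in aged stroke bexarotene libraries, against 155 to 254 CPM in aged bexarotene libraries. In vehicle mice it was 3133 to 5007 CPM with stroke, against 80.2 to 125 CPM without. Of these markers Vcan was at 0 in at least 1 library of the aged groups without stroke, and none was at 0 with stroke.

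The summed level of 10 microglial markers was 21737 to 27421 CPM in aged stroke bexarotene libraries, against 46369 to 53462 CPM in aged bexarotene libraries. It was 23474 to 24827 CPM in aged stroke vehicle libraries, against 49339 to 53286 CPM in aged vehicle libraries, and 8 of the 10 were called lower in each treatment. All 5 cell division markers were called higher in both treatments, with summed levels of 574 to 649.8 CPM in aged stroke bexarotene libraries, against 11.7 to 18.8 CPM in aged bexarotene libraries, and of 397 to 584 CPM in aged stroke vehicle libraries, against 19.1 to 24.6 CPM in aged vehicle libraries. Neutrophil markers, which the Ly6G depletion should have reduced, were called higher for 5 of 10 genes in vehicle mice and for 1 of 10 in bexarotene mice. Border-associated macrophage markers, 8 in all, summed to 708 to 1007 CPM in aged stroke bexarotene libraries, against 581 to 665 CPM in aged bexarotene libraries, with 3 called higher and 4 lower. In vehicle mice they summed to 1085 to 1147 CPM with stroke, against 526 to 679.8 CPM without, with 3 called higher and 0 lower. Astrocyte markers, also 8, summed to 107 to 227 CPM in aged stroke bexarotene libraries, against 492 to 729 CPM in aged bexarotene libraries, and to 121 to 166 CPM in aged stroke vehicle libraries, against 336 to 484 CPM in aged vehicle libraries. Of these 8, 0 were called higher and 1 lower in bexarotene mice, and 1 higher and 1 lower in vehicle mice. Of 8 genes known to respond to handling and heat shock, 3 were higher and 1 lower in bexarotene mice, and 4 were higher and 3 lower in vehicle mice. Their summed level was 2392 to 4451 CPM in aged stroke bexarotene libraries, against 1494 to 2179 CPM in aged bexarotene libraries. In vehicle mice it was 3240 to 4992 CPM with stroke, against 1365 to 2061 CPM without, so the sums did not overlap in either treatment. The part of these shifts in the results for the members was not tested.

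In the lower arm of glycolysis the members moved together, where 26.8% of all genes tested were higher in bexarotene and 27.2% in vehicle mice. Of the 7 genes from triose phosphate isomerase to pyruvate kinase, 6 were called higher with stroke in each treatment, with a median log2 fold change over the 7 of 1.48 in bexarotene mice and 1.27 in vehicle mice. The remaining one, the neuronal enolase Eno2, was low and not called, at 0.264 to 0.602 CPM in aged stroke bexarotene libraries, against 0.255 to 0.824 CPM in aged bexarotene libraries, and at 0.578 to 1.82 CPM in aged stroke vehicle libraries, against 0.685 to 1.54 CPM in aged vehicle libraries.

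Pkm (on chromosome 9) encodes the muscle-type pyruvate kinase, which makes pyruvate and ATP in the last step. It stood at 1362, 1741 and 1271 CPM in aged stroke bexarotene libraries, against 357, 469.7 and 360.4 CPM in aged bexarotene libraries. In vehicle mice it stood at 1425, 1253 and 1706 CPM with stroke, against 349, 438 and 428 CPM without. Every library with stroke lay above every library without it, and the log2 fold changes were 1.88 ± 0.14 SE in bexarotene and 1.85 ± 0.14 SE in vehicle mice (edgeR, adjusted p = 1.34e-08 and 1.57e-08). A gene count does not separate the splice forms of Pkm.

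Gapdh (chromosome 6), the dehydrogenase that feeds electrons to NAD, stood at 875, 1001 and 901 CPM in aged stroke bexarotene libraries, against 265, 341 and 245 CPM in aged bexarotene libraries. Its vehicle values were 812, 828 and 1049 CPM with stroke, against 288, 343 and 344 CPM without. The groups did not overlap, with log2 fold changes of 1.71 ± 0.14 SE in bexarotene and 1.46 ± 0.13 SE in vehicle mice. Gapdh, often used as a constant reference gene, was thus among the most changed members here.

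Tpi1 (chromosome 6), which interconverts the 2 triose phosphates, stood at 335, 346 and 285 CPM in aged stroke bexarotene libraries, against 95.7, 133 and 83.2 CPM in aged bexarotene libraries. With stroke in vehicle mice it stood at 263, 229.6 and 391 CPM, against 88.6, 141 and 137 CPM without stroke. These groups did not overlap either, and the log2 fold changes were 1.63 ± 0.21 SE and 1.27 ± 0.21 SE, in bexarotene and vehicle mice in that order.

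Pgk1 (chromosome X), which makes the first ATP of the pathway and carries a pair of ACGTG matches in the promoter printed above, stood at 199, 207 and 188 CPM in aged stroke bexarotene libraries, against 72.9, 86.0 and 65.7 CPM in aged bexarotene libraries. The vehicle libraries had 185, 165 and 242 CPM with stroke, against 69.3, 90.1 and 96.0 CPM without. The log2 fold change was 1.40 ± 0.14 SE in bexarotene and 1.21 ± 0.14 SE in vehicle mice, with no overlap.

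Pgam1 (chromosome 19), a phosphoglycerate mutase, stood at 473, 541 and 435 CPM in aged stroke bexarotene libraries, against 162, 206 and 153 CPM in aged bexarotene libraries. In vehicle mice the values were 449.9, 379 and 569 CPM with stroke, against 159, 204 and 207 CPM without, and its log2 fold changes were 1.48 ± 0.15 SE in bexarotene and 1.29 ± 0.15 SE in vehicle mice. All stroke libraries were above all libraries without stroke.

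Eno1 (chromosome 4), the enolase of most tissues, stood at 1211, 1438 and 1092 CPM in aged stroke bexarotene libraries, against 542, 637 and 509 CPM in aged bexarotene libraries. It had 1204, 988 and 1292 CPM in aged stroke vehicle libraries, against 471, 512 and 571 CPM in aged vehicle libraries. The log2 fold change was 1.15 ± 0.12 SE in bexarotene and 1.17 ± 0.12 SE in vehicle mice, and the groups did not overlap.

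Several of these genes have near-identical copies, and the sources used here do not tell how reads that match both were counted. The retrogene Eno1b held 45.1% as many counts as Eno1, Pgk1-rs7 held 49.4% as many as Pgk1 and Pgam1-ps2 held 30.4% as many as Pgam1. The copies moved with their parents in vehicle mice, with log2 fold changes of 1.20 ± 0.12 SE for Eno1b, 1.16 ± 0.15 SE for Pgk1-rs7 and 1.34 ± 0.15 SE for Pgam1-ps2. With the copies' counts added to the parent, the fold changes in vehicle mice were 1.18 for Eno1, 1.19 for Pgk1 and 1.31 for Pgam1, and no call among the 31 members changed. The levels of these 3 genes are uncertain by the copies' shares.

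**Figure D2:**
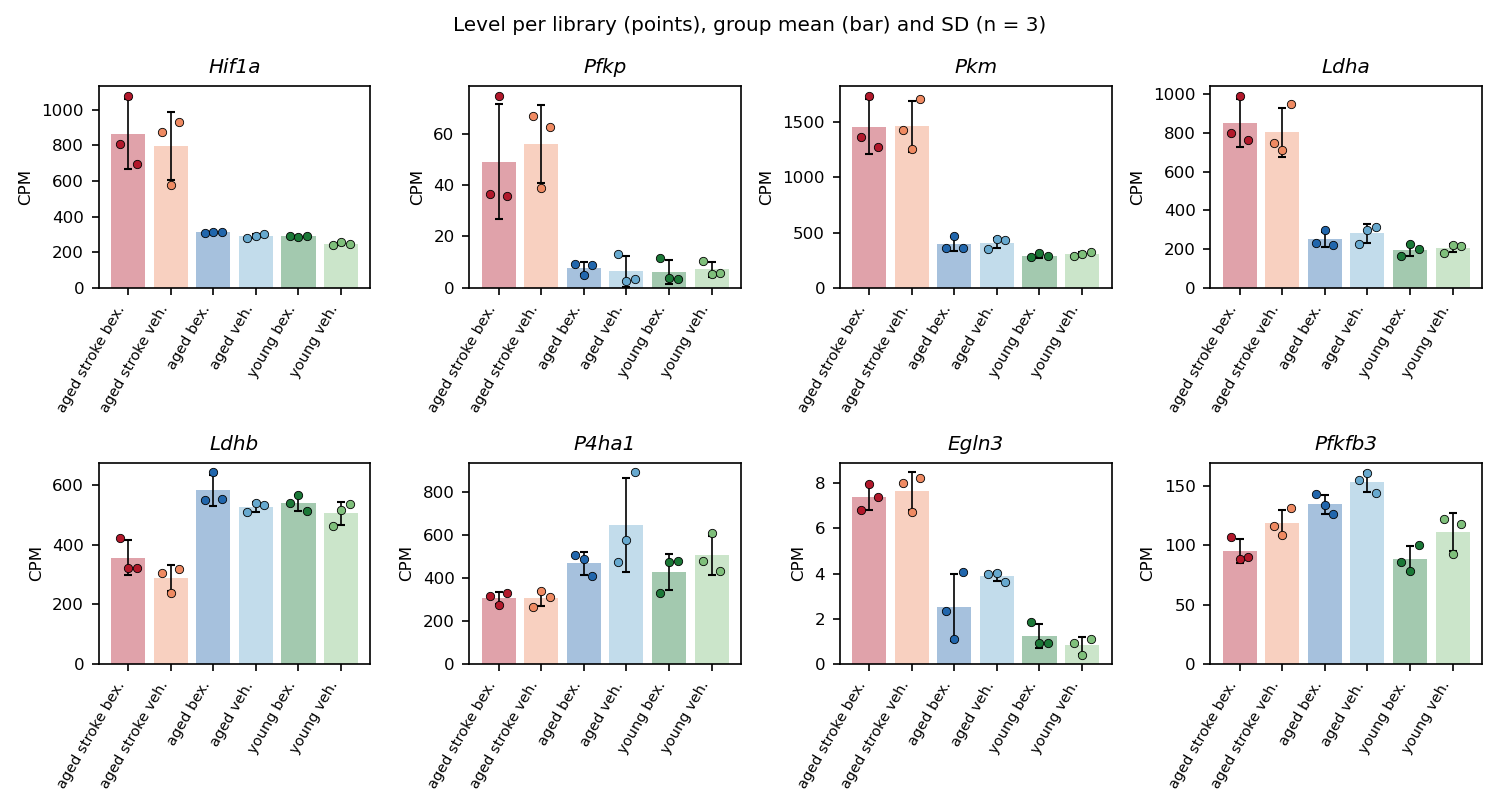
CPM of 8 members in each library (points), with the group mean (bar) and SD (error bar, n = 3), for aged stroke bexarotene, aged stroke vehicle, aged bexarotene, aged vehicle, young bexarotene and young vehicle mice. Hif1a, Pfkp, Pkm and Ldha stand highest in the stroke groups, Ldhb and P4ha1 lowest there, Egln3 is lowest in young mice, and Pfkfb3 is highest in aged mice without stroke.

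The upper arm of the pathway was less uniform. Of the 3 hexokinases, 0 were called in bexarotene mice, and in vehicle mice Hk3 was called higher and Hk2 lower. Hk2, an inducible hexokinase that binds mitochondria, averaged 105 ± 25.1 CPM in aged stroke bexarotene and 107 ± 14.3 CPM in aged bexarotene cells (SD, n = 3 each). It averaged 96.1 ± 7.13 CPM in aged stroke vehicle and 132 ± 11.7 CPM in aged vehicle cells, a log2 fold change of -0.46 ± 0.15 SE (edgeR, adjusted p = 0.0176) that was lost without stroke vehicle library 1 or 3, or without the libraries numbered 1 (adjusted p = 0.0603). Hk3, a hexokinase of myeloid cells, averaged 129 ± 6.88 CPM in aged stroke vehicle and 105 ± 8.26 CPM in aged vehicle cells, a log2 fold change of 0.30 ± 0.11 SE. Its call (edgeR, adjusted p = 0.0347) was lost with DESeq2, with RLE size factors and without the filter on low counts (adjusted p = 0.0596, 0.0547 and 0.120), without any 1 of 4 libraries, and without the libraries numbered 1 (adjusted p = 0.0903). Hk1, the hexokinase of most tissues, was not called. Its 95% interval was -0.32 to 0.32 in bexarotene mice, and its log2 fold change was 0.33 ± 0.15 SE in vehicle mice. There it was called higher without aged vehicle library 3 or without stroke vehicle library 2 (edgeR, adjusted p = 0.0383 and 0.0407).

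Gpi1 (chromosome 7), which turns glucose phosphate into fructose phosphate, stood at 122, 129 and 134 CPM in aged stroke bexarotene libraries, against 60.5, 71.4 and 59.7 CPM in aged bexarotene libraries. It stood at 126, 119 and 136 CPM in aged stroke vehicle libraries, against 64.2, 61.2 and 64.3 CPM in aged vehicle libraries. The replicates were tight, the groups did not overlap, and the log2 fold change was 1.00 ± 0.09 SE in each treatment.

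Among the phosphofructokinases, the enzymes of the committed step, the platelet form was the one called with stroke. Pfkp (chromosome 13) stood at 36.5, 74.8 and 35.7 CPM in aged stroke bexarotene libraries, against 9.16, 4.84 and 8.72 CPM in aged bexarotene libraries. It stood at 66.8, 38.7 and 62.5 CPM in aged stroke vehicle libraries, against 13.1, 2.54 and 3.36 CPM in aged vehicle libraries. The groups were far apart but the replicates of each scattered, and the log2 fold changes were 2.698 ± 0.58 SE in bexarotene and 3.13 ± 0.59 SE in vehicle mice, the largest of any member. Without aged vehicle library 1, the highest of its group, the vehicle value was 4.21 (edgeR, adjusted p = 6.7e-05). Pitrm1, on the opposite strand, shares 748 exon bases with Pfkp and had a log2 fold change of 0.32 ± 0.12 SE in bexarotene and 0.35 ± 0.12 SE in vehicle mice.

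Pfkl, the liver-type form and the main one here, averaged 169 ± 14.5 CPM in aged stroke bexarotene and 143 ± 11.1 CPM in aged bexarotene cells, and 146 ± 20.2 CPM in aged stroke vehicle and 142 ± 24.4 CPM in aged vehicle cells. Its log2 fold changes were 0.24 and 0.04, with 95% intervals of -0.03 to 0.51 in bexarotene and -0.23 to 0.31 in vehicle mice. Pfkm, the muscle form, was low, at 1.76 to 6.25 CPM over the 4 aged groups, and was not called. The difference between Pfkp and its paralogs was not tested as such.

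Pfkfb3 and Pfkfb4 encode bifunctional enzymes that make and break the fructose bisphosphate that activates phosphofructokinase. Pfkfb3, the form most often tied to high glycolysis, averaged 95.1 ± 10.0 CPM in aged stroke bexarotene and 134 ± 8.29 CPM in aged bexarotene cells, and 119 ± 11.2 CPM in aged stroke vehicle and 153 ± 8.31 CPM in aged vehicle cells. It was lower with stroke in both, with log2 fold changes of -0.50 ± 0.12 SE and -0.37 ± 0.12 SE (edgeR, adjusted p = 0.00182 in bexarotene and 0.0141 in vehicle mice). Without the libraries numbered 1 the vehicle call was lost, at an adjusted p of 0.0591 and a log2 fold change of -0.38. Pfkfb4 had log2 fold changes of -0.11 ± 0.11 SE in bexarotene and 0.02 ± 0.11 SE in vehicle mice and was not called.

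Aldoa, the aldolase of muscle and most other cells, stood at 630.2, 652 and 585 CPM in aged stroke bexarotene libraries, against 365, 443 and 324 CPM in aged bexarotene libraries. Aged stroke vehicle libraries had 563, 426 and 696 CPM, against 370.3, 444 and 467 CPM in aged vehicle libraries, which overlapped. The log2 fold change was 0.72 ± 0.15 SE in bexarotene and 0.40 ± 0.15 SE in vehicle mice, and the vehicle call (edgeR, adjusted p = 0.0356) was lost without any 1 of 5 of the 6 libraries, with adjusted p up to 0.258, and without the libraries numbered 1 the log2 fold change was 0.27 (adjusted p = 0.312). Aldoc, the brain aldolase, stood at 2.22 to 3.73 CPM with stroke and 2.54 to 7.90 CPM in aged mice without stroke and was not called.

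Lactate dehydrogenase showed opposite changes of its 2 subunits. Ldha (chromosome 7), whose subunit favours lactate production, stood at 799, 993 and 762 CPM in aged stroke bexarotene libraries, against 232, 296 and 221 CPM in aged bexarotene libraries. It stood at 749, 712 and 949 CPM in aged stroke vehicle libraries, against 226, 299.6 and 316 CPM in aged vehicle libraries. The groups did not overlap, and the log2 fold change was 1.77 ± 0.16 SE in bexarotene and 1.52 ± 0.16 SE in vehicle mice (edgeR, adjusted p = 1.10e-07 and 5.62e-07).

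Ldhb (chromosome 6) went the other way. Its level was 424, 321 and 323 CPM in aged stroke bexarotene libraries, against 550.0, 643 and 553 CPM in aged bexarotene libraries, and 306, 238 and 319 CPM in aged stroke vehicle libraries, against 509, 539 and 534 CPM in aged vehicle libraries. All stroke libraries lay below all libraries without stroke, with log2 fold changes of -0.71 ± 0.12 SE in bexarotene and -0.87 ± 0.12 SE in vehicle mice. Pdk1, which restrains the entry of pyruvate into mitochondria, averaged 125 ± 7.91 CPM in aged stroke bexarotene and 119.9 ± 6.75 CPM in aged bexarotene cells, and 109 ± 14.7 CPM in aged stroke vehicle and 111 ± 21.0 CPM in aged vehicle cells. Its 95% intervals were -0.22 to 0.34 in bexarotene and -0.31 to 0.26 in vehicle mice on the log2 scale.

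Scaled by exon length, Ldha made up 47.2%, 59.5% and 52.8% of the Ldha and Ldhb transcripts in aged stroke bexarotene libraries, against 16.7%, 17.9% and 15.9% in aged bexarotene libraries. Its share was 53.8%, 58.7% and 58.5% in aged stroke vehicle libraries, against 17.4%, 20.8% and 21.9% in aged vehicle libraries. The share in young mice was 12.6% to 15.86% with bexarotene and 15.7% to 17.04% with vehicle. It lay only just below the lowest share of aged mice without stroke, 15.93% with bexarotene and 17.41% with vehicle. This difference was not tested. By this measure Ldhb was the main form in every library without stroke, and Ldha in all stroke libraries but bexarotene library 1. The lengths cover all annotated exon bases, 3310 for Ldha and 1570 for Ldhb, not the transcripts present, so the shares depend on them. Without scaling, Ldha also exceeded Ldhb in bexarotene library 1, at 799 against 424 CPM.

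**Figure D3:**
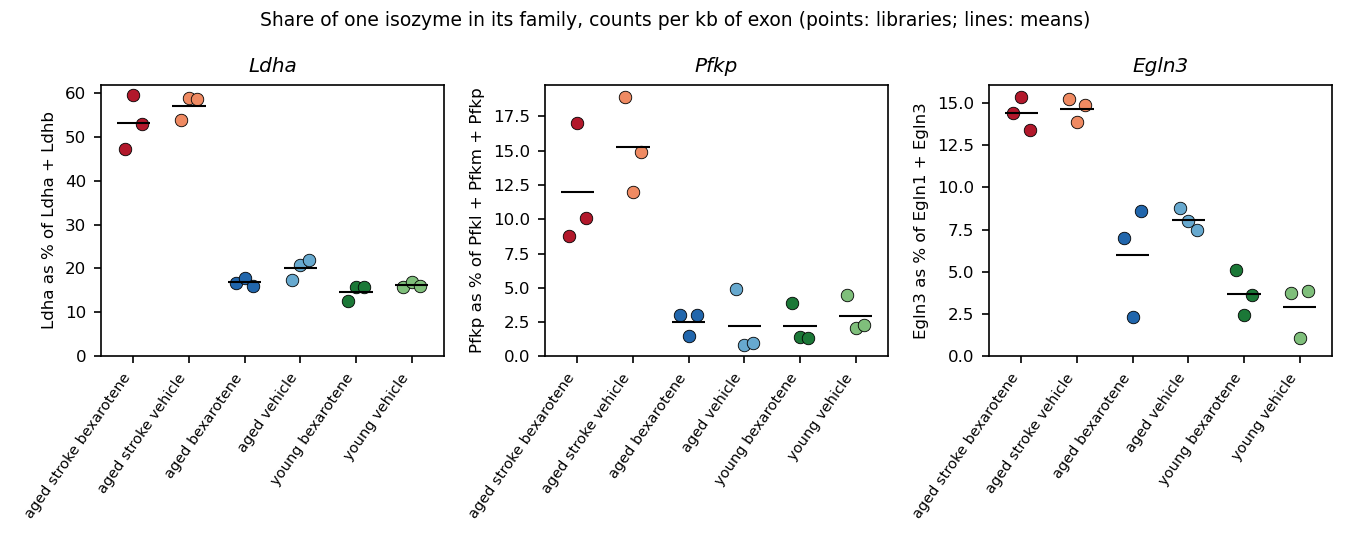
Share of Ldha in Ldha plus Ldhb, of Pfkp in the 3 phosphofructokinases, and of Egln3 in Egln1 plus Egln3, in counts per kb of exon, for each library (points) with the group mean (line). The stroke groups lie above the groups without stroke in each panel, at 47.2% to 59.5% for Ldha, 8.77% to 18.9% for Pfkp and 13.4% to 15.4% for Egln3.

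Pfkp likewise made up 8.77% to 17.04% of phosphofructokinase transcripts in aged stroke bexarotene libraries, against 1.48% to 3.05% in aged bexarotene libraries, and 11.96% to 18.9% in aged stroke vehicle libraries, against 0.807% to 4.93% in aged vehicle libraries. In other families 1 form dominated in all 18 libraries: Aldoa over Aldoc with at least 96.7%, Eno1 over Eno2 with at least 99.7% and P4ha1 over P4ha2 with at least 99.3%.

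Of the oxygen-sensing genes, 2 of 4 were called higher with stroke in each treatment. Of all genes tested, 26.8% were higher in bexarotene and 27.2% in vehicle mice, and 4 genes are too few to compare. Hif1a (chromosome 12), the inducible alpha subunit of HIF, stood at 808, 1080.1 and 697 CPM in aged stroke bexarotene libraries, against 309, 313 and 314 CPM in aged bexarotene libraries. It stood at 875, 576 and 932 CPM in aged stroke vehicle libraries, against 280.0, 289 and 303 CPM in aged vehicle libraries. Without stroke the libraries agreed closely, with stroke they spread over 576 to 1080.1 CPM, and the log2 fold change was 1.47 ± 0.15 SE in bexarotene and 1.45 ± 0.15 SE in vehicle mice (edgeR, adjusted p = 3.67e-07 and 4.48e-07). The protein is set mainly by its destruction, which transcript counts do not show.

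Egln3 (chromosome 12), a hydroxylase that HIF itself induces, was low but higher with stroke. It stood at 6.83, 7.98 and 7.37 CPM in aged stroke bexarotene libraries, against 2.37, 1.10 and 4.06 CPM in aged bexarotene libraries, and at 8.01, 6.70 and 8.25 CPM in aged stroke vehicle libraries, against 3.99, 4.01 and 3.65 CPM in aged vehicle libraries. The groups did not overlap, and the log2 fold change was 1.57 ± 0.36 SE in bexarotene and 0.98 ± 0.35 SE in vehicle mice (edgeR, adjusted p = 0.00162 and 0.0281). The vehicle call was lost without any 1 of 5 of the 6 libraries, with adjusted p up to 0.0873, and was kept without stroke vehicle library 2. Without the libraries numbered 1 it was lost too (adjusted p = 0.138).

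Egln1, the main hydroxylase in normal oxygen, averaged 59.5 ± 4.74 CPM in aged stroke bexarotene and 54.4 ± 10.6 CPM in aged bexarotene cells, and 60.1 ± 3.68 CPM in aged stroke vehicle and 59.8 ± 3.46 CPM in aged vehicle cells. Its log2 fold change had a 95% interval of -0.22 to 0.47 in bexarotene and -0.34 to 0.35 in vehicle mice. Epas1, the HIF alpha subunit known from endothelium, reached at most 3.93 CPM in any library and was not called.

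Known HIF targets in the set did not move as 1 group. P4ha1 (chromosome 10), whose enzyme hydroxylates collagen in the endoplasmic reticulum, stood at 316, 275 and 333 CPM in aged stroke bexarotene libraries, against 509.6, 491 and 409 CPM in aged bexarotene libraries. It stood at 268, 339 and 313 CPM in aged stroke vehicle libraries, against 475, 577 and 895 CPM in aged vehicle libraries. Stroke libraries lay below the others without overlap, with log2 fold changes of -0.61 ± 0.20 SE in bexarotene and -1.08 ± 0.20 SE in vehicle mice (edgeR, adjusted p = 0.0184 and 0.000274). The bexarotene call was lost without aged bexarotene library 1 or 2 or stroke bexarotene library 2, with edgeR adjusted p up to 0.0809.

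Bnip3l (chromosome 14), a receptor for the removal of mitochondria, stood at 194, 191 and 242 CPM in aged stroke bexarotene libraries, against 265, 279 and 267 CPM in aged bexarotene libraries. It had 191, 173 and 205 CPM in aged stroke vehicle libraries, against 255, 273 and 299.9 CPM in aged vehicle libraries. There was no overlap, and the log2 fold change was -0.37 ± 0.10 SE in bexarotene and -0.54 ± 0.10 SE in vehicle mice. Its pseudogene Bnip3l-ps held 36.3% as many counts and had a log2 fold change of -0.47 ± 0.11 SE in vehicle mice. The related Bnip3 averaged 66.3 ± 4.27 CPM in aged stroke bexarotene and 64.5 ± 11.3 CPM in aged bexarotene cells, and 60.3 ± 16.0 CPM in aged stroke vehicle and 69.4 ± 13.9 CPM in aged vehicle cells, and was not called.

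Ankrd37 and Ndrg1, both low, were called higher in vehicle mice. Ankrd37, an ankyrin repeat gene, averaged 4.18 ± 0.281 CPM in aged stroke bexarotene and 3.71 ± 0.385 CPM in aged bexarotene cells, and 5.15 ± 1.14 CPM in aged stroke vehicle and 3.11 ± 0.580 CPM in aged vehicle cells. Its exons share bases with Ufsp2 and Lrp2bp on the opposite strand, so reads could not be told apart without strand. Ndrg1, a stress-induced gene of the myelin and epithelial lineages, averaged 6.75 ± 1.79 CPM in aged stroke bexarotene and 1.69 ± 0.615 CPM in aged bexarotene cells, a log2 fold change of 2.00 ± 0.74 SE. In vehicle mice it averaged 10.1 ± 3.04 CPM with stroke and 2.89 ± 4.01 CPM without, and aged vehicle library 1, at 7.52 CPM, overlapped with the stroke libraries. The log2 fold change in vehicle mice was 1.78 ± 0.70 SE (edgeR, adjusted p = 0.0457), and 4.06 without that library (adjusted p = 3.4e-05). The vehicle call of Ankrd37 was lost without any 1 of 4 libraries, that of Ndrg1 without any 1 of 4, and the bexarotene call of Ndrg1 without any 1 of 5, with edgeR adjusted p up to 0.159. Without the libraries numbered 1, the vehicle log2 fold change of Ankrd37 was 0.40 (edgeR, adjusted p = 0.372). P4ha2 was at most 2.95 CPM and was not called. Without stroke vehicle library 2 it was called higher in vehicle mice (log2 fold change 1.57; edgeR, adjusted p = 0.0265).

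No difference of the stroke effect between bexarotene and vehicle mice was called for any of the 31 members, and 0 of 15528 genes passed by edgeR, with 638 genes at an unadjusted p under 0.05 and 1 gene called by DESeq2. On the log2 scale, the widest gaps among abundant members were 0.47 for P4ha1, -0.43 for Pfkp and 0.43 for Hk2. The 95% intervals were -0.14 to 1.09 for P4ha1 and -0.04 to 0.90 for Hk2, and that of Pfkp also reached beyond 2-fold. For 21 of 31 members the interval of this difference lay within 2-fold in either direction.

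Within the stroke groups the order of the libraries was compared between the monocyte markers and the members that were more than 2-fold higher in vehicle mice. There were 11 such members, while 15.3% of all genes tested were called higher by more than 2-fold. In aged stroke bexarotene mice, library 2 had the highest monocyte sum, 5346 CPM, and the highest level of 10 of the 11 members, while library 1 had the lowest sum, 2728 CPM, and the lowest level of 2 of the 11, and the whole order was shared by 1 of the 11. In aged stroke vehicle mice, library 3 had the highest monocyte sum, 5007 CPM, and the highest level of 9 of the 11, and library 2 had the lowest, 3133 CPM, and the lowest level of 10 of the 11, and the whole order was shared by 8 of the 11. On the first principal component over all genes tested (59.9% of the variance), the stroke libraries had the same order as the monocyte sums. Library 2 was highest at 114 and library 1 lowest at 88.7 in aged stroke bexarotene mice. In aged stroke vehicle mice library 3 was highest at 109 and library 2 lowest at 94.7. Shares over all genes were not counted, so the orders are not shown to be particular to these members or markers. With 3 libraries a group this is a description of order and was not tested.

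**Figure D4:**
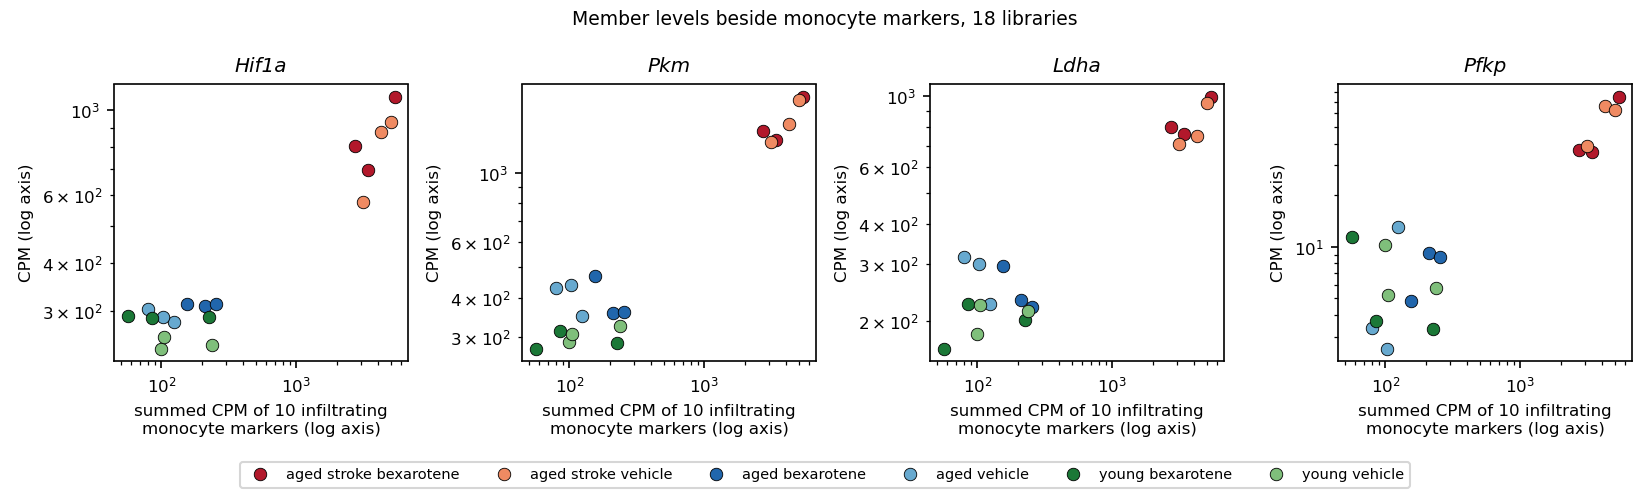
CPM of Hif1a, Pkm, Ldha and Pfkp against the summed CPM of 10 markers of infiltrating monocytes and macrophages, both on log axes, 1 point per library, coloured by group. The 6 stroke libraries form a cluster of their own at 2728 to 5346 CPM of the markers, and the 12 libraries without stroke lie at 56.2 to 254 CPM.

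Other genes of these pathways were counted from lists, to be read against the 48.0% of all genes tested that were called with stroke in bexarotene mice and the 48.3% in vehicle mice. All 7 genes of the pentose phosphate pathway were called with stroke in vehicle mice, 6 higher and 1 lower: Taldo1, a transaldolase, had a log2 fold change of 1.14 ± 0.11 SE, the transketolase Tkt 0.84 ± 0.09 SE and the dehydrogenase Pgd 0.71 ± 0.09 SE. In bexarotene mice the counts were 6 higher and 1 lower as well. Of 9 genes of glycogen metabolism and side branches, 6 were higher and 2 lower in vehicle mice, and 4 higher and 2 lower in bexarotene mice. Pygl, a glycogen phosphorylase, averaged 75.1 CPM in aged stroke vehicle and 16.6 CPM in aged vehicle cells, the glycogen synthase Gys1 15.2 and 8.18 CPM, and Tigar, a phosphatase that slows glycolysis, 12.8 and 5.84 CPM.

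Transport genes split in direction, with 2 of 8 higher and 3 lower in each treatment, 62.5% called. Slc2a6, a hexose transporter of lysosomes, averaged 95.6 CPM in aged stroke vehicle and 4.88 CPM in aged vehicle cells, a log2 fold change of 4.29 ± 0.48 SE, and Slc16a3, a lactate exporter, averaged 174 and 68.9 CPM in the same order of groups. Slc2a5, the fructose transporter that marks microglia, averaged 275 CPM in aged stroke vehicle and 971 CPM in aged vehicle cells, a log2 fold change of -1.82 ± 0.14 SE. Of 12 genes of pyruvate entry into mitochondria, 4 were higher and 4 lower in bexarotene mice, and 2 higher and 2 lower in vehicle mice, which is 66.7% and 33.3% called. The kinases Pdk2 and Pdk3 moved in opposite ways in vehicle mice, with log2 fold changes of -1.24 ± 0.20 SE and 0.86 ± 0.14 SE, and the dehydrogenase subunit Pdha1 had 0.68 ± 0.12 SE.

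Of 11 partners in oxygen sensing, 3 were higher and 2 lower in each treatment, 45.5% called and so near the share of all genes. Elob, an elongin of the ubiquitin ligase that destroys HIF, had a log2 fold change of 1.19 ± 0.13 SE in vehicle mice, Vhl, its substrate receptor, had -1.004 ± 0.13 SE, and Rbx1, its RING subunit, had 0.43 ± 0.11 SE. Of 20 further known HIF targets 17 were tested, and 8 were higher and 2 lower in bexarotene mice, 7 higher and 2 lower in vehicle mice, which is 58.8% and 52.9% called. Hmox1, the heme oxygenase, averaged 428 CPM in aged stroke vehicle and 61.7 CPM in aged vehicle cells, Angptl4, a lipase inhibitor, 6.96 and 0.285 CPM, and the histone demethylase Kdm3a 69.0 and 122 CPM. Hmox1 is also induced by heme and oxidative stress. Of 12 glycolytic isozymes of other tissues only 5 passed the filter, and 0 were called with stroke, although Pfkfb1 had an unadjusted p of 0.0370 in vehicle mice.

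Age was compared in vehicle mice without stroke. In aged cells 25 of 31 members had a positive log2 fold change, with a median of 0.36, against -0.01 over all genes tested, but 1 was called, 3.23% of the members against 1.70% of all genes tested. The levels of aged and young libraries did not overlap for 13 of 31 members, while 18.4% of all genes tested did not overlap. At an unadjusted p under 0.05 there were 12 of 31 members, and 2034 of the 15528 genes tested. Of the cell markers, 0 of 10 for microglia, 0 of 10 for monocytes and 3 of 8 for border-associated macrophages, all 3 lower, were called with age. The summed level of these 8 was 526 to 679.8 CPM in aged vehicle libraries, against 867 to 1103 CPM in young vehicle libraries, and their part in the members' values was not tested. The aged vehicle libraries also entered the stroke comparison, where they were set against stroke, so the comparisons share libraries.

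The called member was Egln3. It stood at 3.99, 4.01 and 3.65 CPM in aged vehicle libraries, against 0.954, 0.405 and 1.13 CPM in young vehicle libraries, where it rested on 10, 3 and 13 counts. The groups did not overlap, and the log2 fold change was 2.16 ± 0.42 SE (edgeR, adjusted p = 0.00810). The call was lost with limma voom (adjusted p = 0.0607) and without the libraries numbered 1 (adjusted p = 0.156), while the log2 fold changes were 2.17 and 2.21. In aged bexarotene libraries Egln3 stood at 2.37, 1.10 and 4.06 CPM, against 1.85, 0.955 and 0.952 CPM in young bexarotene libraries.

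Pfkfb3 stood at 155, 160.3 and 144 CPM in aged vehicle libraries, against 122, 92.8 and 118 CPM in young vehicle libraries, a log2 fold change of 0.46 ± 0.12 SE that just missed the threshold (edgeR, adjusted p = 0.0524). Egln1 stood at 55.9, 62.4 and 61.1 CPM in aged vehicle libraries, against 33.0, 48.8 and 38.3 CPM in young vehicle libraries, a log2 fold change of 0.58 ± 0.16 SE (edgeR, adjusted p = 0.0810). With the replicate number as a block, both were called, at adjusted p of 0.0308 for Pfkfb3 and 0.0490 for Egln1. Neither pair of groups overlapped. Aldoa stood at 370.3, 444 and 467 CPM in aged vehicle libraries, against 290.0, 309 and 285 CPM in young vehicle libraries, a log2 fold change of 0.54 ± 0.15 SE (edgeR, adjusted p = 0.0819).

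Other members of lower glycolysis had small positive values with age: the log2 fold changes of Tpi1, Gapdh, Pgk1, Pgam1, Eno1 and Pkm lay between 0.30 and 0.43, and Ldha had 0.44 ± 0.16 SE, none of them called. Ldhb had 0.06 ± 0.12 SE. The number of members called depended on the method, with 5 by DESeq2, 8 without the filter on low counts and 0 by limma voom, all in the positive direction. The authors' deposited table of aged over young vehicle mice lists 451 genes, 7 of them members: Aldoa, Egln3, Pfkfb3, Pkm, Egln1, Ldha and Pgam1, with positive log2 fold changes of 0.25 to 1.31. Among the further HIF targets, Lox, which crosslinks collagen, was called higher with age, at 7.74 CPM in aged vehicle and 0.839 CPM in young vehicle cells, and is named after its values were seen.

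**Figure D5:**
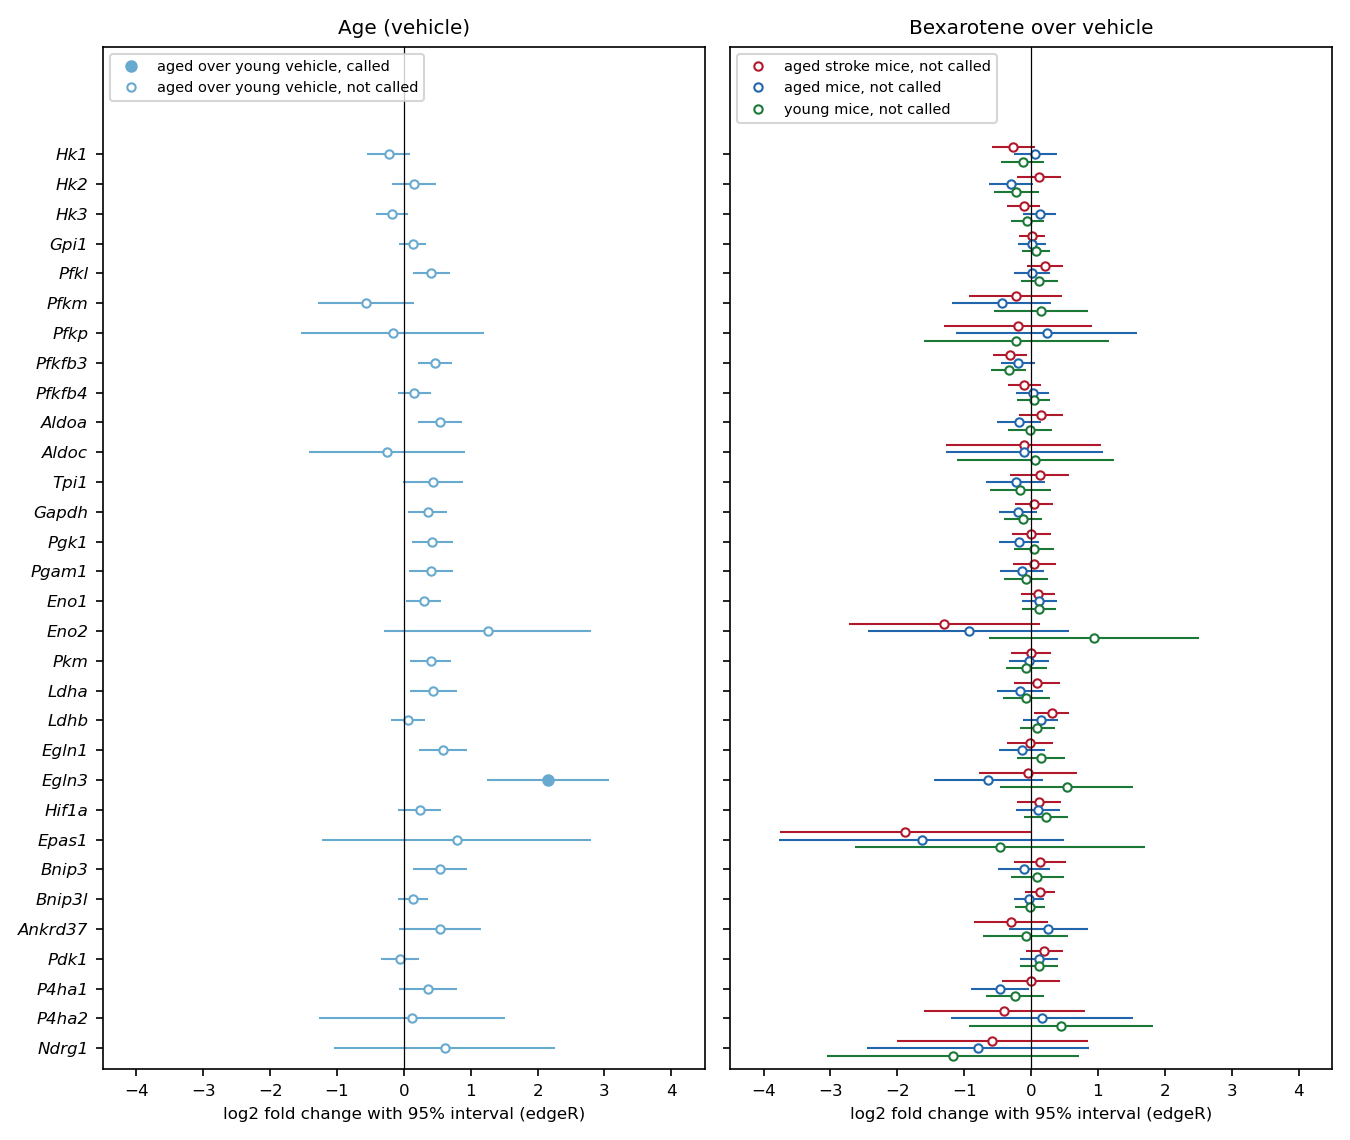
Log2 fold change with 95% interval for the 31 tested members, for aged over young vehicle mice (left) and for bexarotene over vehicle in aged stroke, aged and young mice (right); filled points were called. With age, Egln3 is the filled point at 2.16, and most others lie slightly above 0, and with bexarotene no point is filled and abundant members lie between -0.47 and 0.31.

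Bexarotene against vehicle gave no called member in any of the 3 settings. In aged stroke mice 0 of 31 were called, against 0.0580% of all genes tested, in aged mice 0 of 31, against 0.258%, and in young mice 0 of 31, against 0.509%. At an unadjusted p under 0.05 there were 3, 1 and 1 of 31 members, against 988, 1012 and 1300 of the 15528 genes tested. DESeq2 called 0 members in each setting. The members' median log2 fold changes were 0.01, -0.10 and -0.01. The 95% interval lay within 2-fold in either direction for 25 of 31 members in aged stroke mice, 23 in aged mice and 24 in young mice. Pfkp was outside this bound in each setting. It was low without stroke, but averaged 49.0 ± 22.3 CPM in aged stroke bexarotene and 56.0 ± 15.1 CPM in aged stroke vehicle cells. The others outside the bound were low genes such as Aldoc, Eno2, Epas1, P4ha2 and Ndrg1. Over members with at least 40 CPM with bexarotene, the log2 fold changes ran from -0.32 to 0.31 in aged stroke mice, -0.47 to 0.14 in aged mice and -0.33 to 0.23 in young mice. Some marker sums did not overlap, but microglial sums did in each setting. Astrocyte markers summed to 581 to 913 CPM with bexarotene in young mice, against 307 to 422 CPM with vehicle. In aged mice they had 492 to 729 CPM, against 336 to 484 CPM. In aged stroke mice border-associated macrophage markers had 708 to 1007 CPM, against 1085 to 1147 CPM. Of these markers 0 were called. The part of these shifts in the members' values was not tested.

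Pfkfb3 had the lowest p of the members in 2 of the 3 settings. It stood at 107, 88.6 and 90.1 CPM in aged stroke bexarotene libraries, against 116, 109 and 131 CPM in aged stroke vehicle libraries, which did not overlap (log2 fold change -0.32 ± 0.12 SE; edgeR, adjusted p = 0.592). In young mice it stood at 85.7, 78.5 and 99.8 CPM with bexarotene, against 122, 92.8 and 118 CPM with vehicle, which overlapped (-0.33 ± 0.12 SE; edgeR, adjusted p = 0.358). In aged mice without stroke it stood at 143, 133 and 126 CPM with bexarotene, against 155, 160.3 and 144 CPM with vehicle, a log2 fold change of -0.19 ± 0.12 SE.

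In aged stroke mice the next lowest p belonged to Ldhb, with 424, 321 and 323 CPM in bexarotene libraries, against 306, 238 and 319 CPM in vehicle libraries (log2 fold change 0.31 ± 0.12 SE; edgeR, adjusted p = 0.638). Epas1 stood at 1.01, 0.132 and 0.510 CPM in aged stroke bexarotene libraries, against 3.93, 1.28 and 1.16 CPM in aged stroke vehicle libraries. These did not overlap (log2 fold change -1.88 ± 0.86 SE, edgeR adjusted p = 0.764). Choroid plexus markers, 0 of them called, summed to 94.95 to 504 CPM in aged stroke bexarotene libraries, against 629 to 2113 CPM in aged stroke vehicle libraries. The library with 2113 CPM, aged stroke vehicle library 1, was also the one with Epas1 at 3.93 CPM. The part of choroid plexus RNA in the Epas1 values was not tested. In aged mice without stroke P4ha1 had the lowest p, with 509.6, 491 and 409 CPM in bexarotene libraries, against 475, 577 and 895 CPM in vehicle libraries, where library 3 stood apart (log2 fold change -0.47 ± 0.20 SE; edgeR, adjusted p = 0.716).

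Hk2 in aged mice stood at 110.2, 119 and 91.3 CPM with bexarotene, against 140.3, 137 and 119 CPM with vehicle, and Egln3 at 2.37, 1.10 and 4.06 CPM, against 3.99, 4.01 and 3.65 CPM. In young mice Hif1a stood at 291, 287 and 289.8 CPM with bexarotene, against 239, 257 and 245 CPM with vehicle, which did not overlap but differed by only 0.23 ± 0.15 SE on the log2 scale. Hk2 in young mice stood at 101, 97.1 and 108 CPM with bexarotene, against 141, 116 and 101 CPM with vehicle. A dependence of the drug effect on age was called for 0 of 31 members and 0 of 15528 genes by edgeR, with 456 genes at an unadjusted p under 0.05 and 3 genes called by DESeq2. The authors' 3 deposited tables for bexarotene list 0 members.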

How the data were processed

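RNA from 18 brain samples selected with CD11b beads was sequenced, 3 libraries in each of 6 groups. The count table was used as the authors deposited it, with whole-number counts for 57010 genes and 18 columns, 0 of them unused. The submitters' processing notes name Trimmomatic 0.40, STAR 2.7.10a, GATK, R 4.4.2 and GRCm39, with no roles, and the counter, annotation and strand setting are not known here. The authors' deposited comparison tables hold log2 fold changes, their errors and p-values for the genes under an adjusted p of 0.05, and their tool is not stated. Counts of 4981 genes without a symbol, 0.339% of the total, stayed in the fit.

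One edgeR 4.0.16 quasi-likelihood model (R 4.3.3, robust, TMM factors 0.937 to 1.05, low counts filtered by filterByExpr) was fitted to all 18 libraries and 6 groups, with 12 residual degrees of freedom, and was tested on simulated data. Adjustment was Benjamini-Hochberg over 15528 genes, at a threshold of 0.05, and intervals cover 95%. The square root of the common dispersion was 0.195, and replicates differed beyond sampling noise (chi-square per degree of freedom 5.77 to 36.2). The floor of 3 counts covers counting error only. Names, exon lengths and overlaps came from GENCODE M21 on GRCm38, whose coordinates were not joined to the counts. DESeq2 1.42.0, limma 3.58.1 (voom) and other alternatives were tried.

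The members, lists and tests were chosen with earlier results of these data known. All 32 members are named. Per-library values are given in full for the 12 called members with the lowest p in each stroke comparison, and for called members and at least the 3 with the lowest p in the others. From each pathway list up to 3 called genes with the lowest p in the stroke comparison of vehicle mice are named. Replicate numbers come from the labels, which do not say that they mark a shared batch. Among the comparisons made, only bexarotene in young mice had all 3 same-numbered pairs correlated over 0.1, at 0.140 to 0.276. The replicate block changed no member's call there. In the stroke comparisons all 3 pairs were also positive, at 0.030 to 0.129 in bexarotene and 0.035 to 0.213 in vehicle mice.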

Additional observations from a re-analysis of the deposited data

How the results depend on the processing

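Of the values of members recomputed under other settings, 4006 kept their side of the threshold, 53 lost a call, 22 gained one and 0 reversed. A reversal was counted only for values called in the main fit or in the other setting. Values called in neither may have changed direction. Of the stroke calls, 20 in vehicle mice became 14 to 21 when 1 library was left out (6432 to 7066 of all genes) and 14 with only the libraries numbered 2 and 3, a setting chosen after seeing the data. In bexarotene mice 17 became 15 to 17 (6172 to 6978 of all genes). With libraries thinned to the shallowest, the vehicle calls of Aldoa, Ankrd37, Hk3, Ndrg1 and Egln3 were lost (edgeR, adjusted p = 0.0539 to 0.181). With only the groups compared, those of Aldoa, Ankrd37 and Ndrg1 were lost (edgeR, adjusted p = 0.0899, 0.0778 and 0.159). Summing near-identical copies, also chosen after seeing the data, left 20 and 17. Calls lost in vehicle mice were those of Aldoa, Ankrd37, Hk3, Ndrg1, Egln3, Hk2 and Pfkfb3. In bexarotene mice those of Ndrg1 and P4ha1 were lost. Calls of Hk1 and P4ha2 were gained in vehicle mice when 1 library was left out.

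With age, 1 member was called, and 2 with RLE size factors, with only the groups compared, or with libraries thinned to the shallowest, 8 without the filter on low counts, 5 with DESeq2, and 0 with limma voom or with the libraries numbered 2 and 3 alone. Leaving out 1 library gave 1 to 2. All genes called with age (264) became 677 without the filter, 516 with DESeq2, 154 with voom, 107 with libraries 2 and 3, and 126 to 255 without 1 library. For bexarotene in young mice (79) they became 457 without the filter, 206 with DESeq2, 36 with only the groups compared, 17 with libraries 2 and 3, and 27 to 70 without 1 library. For bexarotene in aged mice (40) they became 24 with RLE, 339 without the filter, 92 with DESeq2, 18 with voom, 26 with libraries 2 and 3, and 9 to 35 without 1 library, and P4ha1 was 1 member called without the filter (log2 fold change -0.48). For bexarotene in aged stroke mice (9) they became 419 without the filter, 53 with DESeq2, 28 with voom, 5 with only the groups compared, 3 with libraries 2 and 3, and 1 to 17 without 1 library. The difference of the stroke effect (0) became 256 without the filter and 1 with DESeq2, and that of the bexarotene effect by age (0) became 138, 3 and 0 to 1 without 1 library. The causes were not tested.

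With the replicate number as a block, 3 members were called with age (Pfkfb3 at an edgeR adjusted p of 0.0308 and Egln1 of 0.0490 joined Egln3) and 20 genes for bexarotene in aged stroke mice, and no other member call changed. Same-numbered libraries correlated between -0.113 and 0.386, with 27 of 45 pairs over 0.1, and 14 of 18 libraries correlated best with their own number, a hint from the data and not from the design. Among the comparisons made, bexarotene in young mice was the one with all 3 pairs over 0.1.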
